A study of Mus musculus with 6 samples.

Results

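Bile acid synthesis, bile acid transport and the repressor SHP were described in mouse liver through 6 genes: Cyp7a1, Cyp2c70, Abcb11, Slc51b, Slco1a4 and Nr0b2, the gene of SHP. They were taken by symbol from a table of 389 genes, and all 6 had a row. The table held liver of Usp28 knockout mice (KO, 3 samples) and of Usp28 wild-type mice (WT, 3 samples). The knockout was whole-body, so the loss of Usp28, the gene of a deubiquitinase, was not restricted to hepatocytes. Mice of both genotypes ate a methionine-choline deficient diet for 4 weeks from 8 weeks of age, a feeding model of steatohepatitis, so no group here was free of that diet. The labels give neither the sex of the mice nor the hour of collection, and do not state how many animals stand behind a group's 3 samples. The p-values thus reflect sample-to-sample spread, some of it possibly technical.

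Bile acids are made from cholesterol in hepatocytes. They are pumped into bile at the canalicular membrane, taken back up from portal blood at the basolateral membrane, and can leave the cell again across that membrane. Bile acids bind the nuclear receptor FXR, which activates the canalicular pump gene Abcb11, the basolateral exporter gene Slc51b and Nr0b2. SHP, the product of Nr0b2, is an orphan receptor that has no DNA-binding domain. It acts on other receptors such as LRH-1 and HNF4A, and by that route represses Cyp7a1, which closes a negative feedback on bile acid synthesis.

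The 6 genes did not go one way. Both synthesis genes, Cyp7a1 and Cyp2c70, and both export genes, Abcb11 and Slc51b, were higher in KO, while the uptake gene Slco1a4 and the repressor gene Nr0b2 were lower. The FXR-activated genes among them were thus split, with Abcb11 and Slc51b on one side and Nr0b2 on the other. Promoter sequence from the RefSeq promoter table (build GRCm38.p6) was read for 5 of the 6 genes, and Cyp7a1 had no entry. The sequences of Nr0b2, Abcb11 and Slc51b are shown because they share a regulator and differ in direction, and that of Cyp2c70 because this gene had the largest fold among the 6 with all libraries in. Each is written 5′ to 3′ along the gene's strand. The first 3 end at the base before the RefSeq start, which for Cyp2c70 lies 47 bases downstream of the GENCODE start. That of Slc51b is the 30 bases around its match, 195 to 166 bases before the RefSeq start, which lies 182 bases downstream of the GENCODE start. Capitals mark matches to the motifs given next.
Nr0b2 (chr4:133553126-133553375, plus strand): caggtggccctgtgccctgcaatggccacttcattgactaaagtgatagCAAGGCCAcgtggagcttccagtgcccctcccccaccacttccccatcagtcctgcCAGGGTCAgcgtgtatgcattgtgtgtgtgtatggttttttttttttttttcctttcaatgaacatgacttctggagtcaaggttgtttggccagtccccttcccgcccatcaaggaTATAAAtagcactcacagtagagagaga
Abcb11 (chr2:69342617-69342866, minus strand): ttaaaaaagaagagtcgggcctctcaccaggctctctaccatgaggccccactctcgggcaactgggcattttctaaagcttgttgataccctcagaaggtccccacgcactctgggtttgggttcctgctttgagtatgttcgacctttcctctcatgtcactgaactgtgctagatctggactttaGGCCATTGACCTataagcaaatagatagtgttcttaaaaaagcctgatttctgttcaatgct
Cyp2c70 (chr19:40187287-40187536, minus strand): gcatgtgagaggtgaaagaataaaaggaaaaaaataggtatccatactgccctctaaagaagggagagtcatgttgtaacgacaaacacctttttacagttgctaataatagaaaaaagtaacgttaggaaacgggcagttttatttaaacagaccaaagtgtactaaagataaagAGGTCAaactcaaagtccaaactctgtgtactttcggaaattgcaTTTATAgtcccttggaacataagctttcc
Slc51b (chr9:65422939-65422968, minus strand): cattcgtggGGTCATTCACCctggactggc

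The motifs were searched on both strands of the 250 bases before each start, and every share is over the same 250 bases of 32851 promoters. The nuclear receptor hexamer AGGTCA was in Abcb11, Slc51b and Cyp2c70, and in 14.0% of all promoters. The hexamer of Slc51b lies upstream of the stretch printed. The inverted repeat GGTCANTGACC, the kind of element that FXR binds with its partner RXR, had no exact match in the 5 promoters and was in 0.0335% of all. The searches with 1 mismatch were chosen after the sequences were seen. With 1 mismatch the repeat was in Abcb11 from base -62 to -52 and in Slc51b from base -186 to -176, and in 0.624% of all promoters. The hexamer of Abcb11 overlaps that repeat. In Nr0b2 the repeat was not matched. The extended hexamer CAAGGTCA, to which LRH-1 binds, had no exact match in the 5 promoters (1.33% of all). With 1 mismatch it matched at -201 to -194 and at -145 to -138 of Nr0b2, and in 19.6% of all promoters. TATAAA was at -28 to -23 of Nr0b2 and, on the other strand, at -29 to -24 of Cyp2c70 (12.4% of all). That match of Cyp2c70 lies downstream of its GENCODE start. The direct repeats AGGTCANAGGTCA, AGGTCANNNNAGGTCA and AGTTCANNNAGTTCA were in none of the 5 and in 0.0335%, 0.0152% and 0% of all promoters. The promoter of Slco1a4 held no match to any of these motifs. These are matches of letters in a short window, and binding was not measured.

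Depth recovered from counts and FPKM (fragments scaled to transcript length and depth) was 20350000 to 24160000 reads per library. The 389 genes had been selected by the authors for a KO against WT difference: the smallest absolute log2 fold change was 1.004 and the largest FDR 0.0494 in the authors' deposited table. Fold changes and adjusted p-values of the 6 genes therefore describe these libraries and are no independent test. In edgeR's quasi-likelihood test, 99.7% of the table's genes passed an adjusted p of 0.05, 39.8% higher and 59.9% lower in KO, and 93.3% had FPKM values that did not overlap between the groups. All 6 genes passed and none overlapped, a share that is the table's own. By mean level per length the order in WT was Slco1a4 (113 FPKM), Abcb11 (66.9), Cyp2c70 (64.2), Nr0b2 (17.4), Cyp7a1 (9.13) and Slc51b (2.09). In KO it was Cyp2c70 (237 FPKM), Abcb11 (146), Slco1a4 (44.3), Cyp7a1 (23.7), Nr0b2 (7.91) and Slc51b (6.52). The ranges over libraries of Slco1a4, Abcb11 and Cyp2c70 overlapped in WT, and those of Nr0b2 and Slc51b in KO, so these neighbours in the order did not differ beyond their spread. Usp28 had no row, and its loss could not be read from this table. None of 10 hepatocyte, 9 cholangiocyte or 9 stellate and endothelial markers had a row, so the tissue label was not checked against markers either. Of 12 macrophage markers 6 had a row (Mmp12, Gpnmb, Lgals3, Cd14, Itgam and Itgax), none of them at 0 in any library. All 6 passed as lower in KO, though Lgals3 overlapped (13.55 FPKM in WT replicate 2, 14.84 in KO replicate 1). The Kupffer cell genes Clec4f, Vsig4 and Timd4 had no row, and neither had Adgre1, Cd68 and Csf1r. The summed level of the 6 macrophage markers with a row was 67.1, 30.8 and 168 FPKM in WT replicates 1, 2 and 3. In KO it was 20.7 to 28.9 FPKM. In bulk liver, fewer cells of a type and less RNA per cell cannot be told apart.

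The synthesis genes were both higher in KO. Cyp7a1 (ENSMUSG00000028240, chromosome 4, 6265612 to 6275633, minus strand, GRCm38) encodes cholesterol 7-alpha-hydroxylase, the rate-limiting enzyme of the classical pathway. Its level was 13.4, 7.0 and 7.01 FPKM in WT replicates 1, 2 and 3, and 30.4, 26.5 and 14.1 FPKM in KO replicates 1, 2 and 3. KO replicate 3 was only 1.05 times WT replicate 1, so the groups were separate but nearly touched. WT averaged 9.13 ± 3.68 FPKM and KO 23.7 ± 8.51 FPKM (SD, n = 3 each), and edgeR put KO over WT at 1.38 in log2 with an SE of 0.40 (edgeR adjusted p = 0.0114). The highest library was 1.91 times the lowest within WT and 2.15 times within KO, close to the 2.59-fold difference between the group means.

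Cyp2c70 (ENSMUSG00000060613, chromosome 19, 40153353 to 40187333, minus strand) encodes the cytochrome P450 that makes muricholic acids, the hydrophilic primary bile acids of mice. Its level was 29.0, 39.5 and 124 FPKM in WT replicates 1, 2 and 3, and 223, 218 and 270 FPKM in KO replicates 1, 2 and 3. WT replicate 3 stood far above the other WT libraries, at 4.27 times the lowest, and still below every KO library. The KO libraries were close together, with a coefficient of variation of 12.2% against 81.1% in WT. In log2, edgeR put KO over WT at 1.88 with an SE of 0.52 (edgeR adjusted p = 0.00987), the largest of the 6 genes and the 87th largest of 389 in absolute size. Without WT replicate 3 it was 2.80, and without WT replicate 1 it was 1.53, below Cyp7a1 (1.76) and also below Slc51b, so that its place as the largest of the 6 rests on that library. Cyp2c70 belongs to a large family of related genes, and how reads that fit several of them were assigned is not given in the sources used here.

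**Figure D1:**
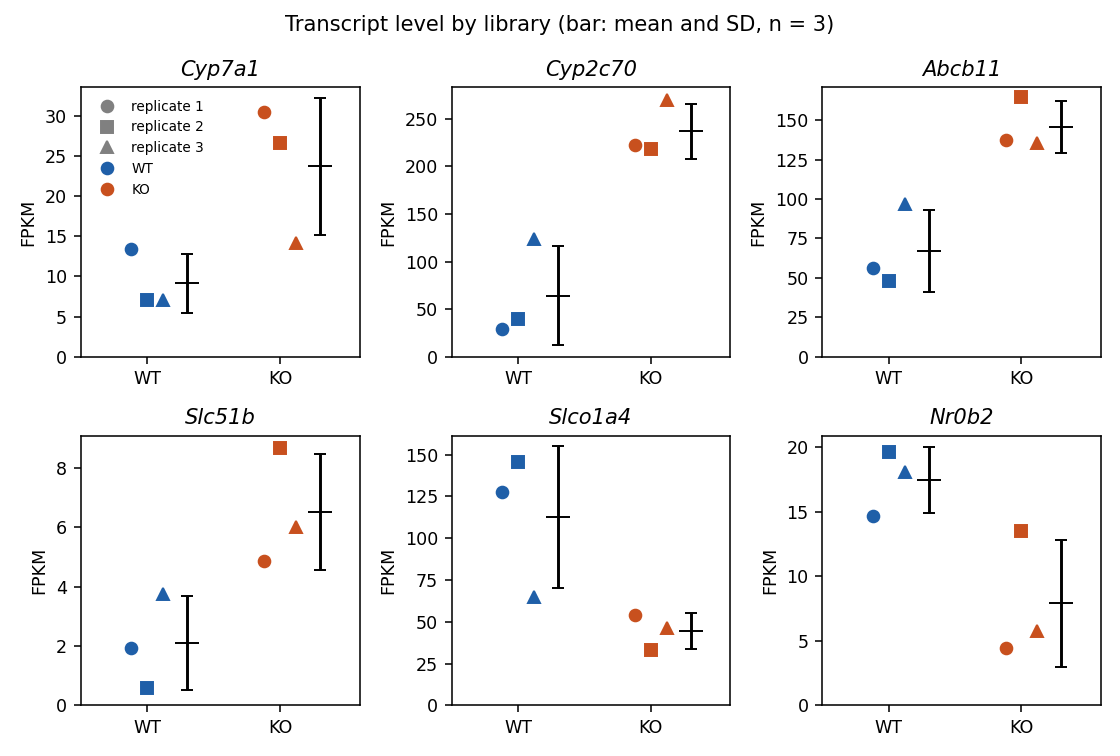
FPKM of each gene in each library (y axis from 0, a scale of its own per panel), with symbols for the replicate number and bars for the group mean and SD of 3 libraries. No gene's WT and KO values overlap, but Cyp7a1 in KO replicate 3 (14.1) nearly meets WT replicate 1 (13.4), and Nr0b2 in KO replicate 2 (13.5) nearly meets WT replicate 1 (14.6).

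Both export genes were higher in KO as well. Abcb11 (ENSMUSG00000027048, chromosome 2, 69238282 to 69342616, minus strand) encodes the bile salt export pump, which moves bile salts into the canaliculus. Its level was 56.0, 48.1 and 96.7 FPKM in WT replicates 1, 2 and 3, and 137, 165 and 135 FPKM in KO replicates 1, 2 and 3. The lowest KO library was 1.40 times the highest WT library, which was again WT replicate 3. By edgeR the log2 difference from WT came to 1.12 with an SE of 0.36 (edgeR adjusted p = 0.0147). This call was lost when WT replicate 1, WT replicate 2 or KO replicate 2 was left out: the log2 fold changes were then 1.01, 0.93 and 1.03 (edgeR adjusted p = 0.0503, 0.0527 and 0.0568). Exons of the antisense gene Gm13613 share 2.64% of the exon bases of Abcb11, and whether the counting used strand is not given in the sources used here.

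Slc51b (ENSMUSG00000053862, chromosome 9, 65412714 to 65422955, minus strand) encodes the small subunit of the heteromeric exporter OSTα-OSTβ, which releases bile acids across the basolateral membrane. It was the lowest of the 6 genes per length in each WT library, at 1.94, 0.58 and 3.74 FPKM in WT replicates 1, 2 and 3, and 4.87, 8.67 and 6.01 FPKM in KO replicates 1, 2 and 3. These levels rest on 28, 10 and 54 reads in WT and on 72, 136 and 93 in KO. The 10 reads of WT replicate 2 have an exact Poisson 95% interval of 4.80 to 18.4, and the 54 of WT replicate 3 one of 40.6 to 70.5; both cover counting error only. On the log2 scale KO exceeded WT by 1.65 with an SE of 0.59 (edgeR adjusted p = 0.0210). Leaving out WT replicate 3 raised the estimate to 2.39. Leaving out KO replicate 2 lowered it to 1.39 and ended the call (edgeR adjusted p = 0.0896). Rasl12, on the opposite strand, shares 91 of the 709 exon bases of Slc51b. Slc51a, the gene of the partner subunit, had no row.

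The basolateral uptake gene Slco1a4 (ENSMUSG00000030237, chromosome 6, 141805440 to 141856199, minus strand) was lower in KO. It encodes Oatp1a4, a carrier that takes up bile salts and other organic anions, and is a known target of the xenobiotic receptor PXR. Its level was 127, 146 and 65.0 FPKM in WT replicates 1, 2 and 3, and 54.0, 32.8 and 46.2 FPKM in KO replicates 1, 2 and 3. WT replicate 3 was 1.20 times the highest KO library and less than the other WT libraries by a wide margin. On the log2 scale KO differed from WT by -1.21 with an SE of 0.37 from counts (edgeR adjusted p = 0.0129), against -1.35 from mean FPKM in the authors' deposited table. Leaving out KO replicate 2 ended the call, at -1.04 (edgeR adjusted p = 0.0588). Scaling by TMM, by relative log expression or by DESeq2's size factors ended it too, at -0.63, -0.54 and -0.54 (adjusted p = 0.181, 0.221 and 0.218).

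For Slco1a4 the counts and the FPKM gave different folds, and the transcript length behind its FPKM varied between libraries. Count divided by FPKM and depth gives that length. For Nr0b2 it was 1131 to 1132 bases in every library and for Cyp7a1 4169 to 4173, which is the annotated length of their transcripts (1132 and 4172 bases, GENCODE M21). For Slco1a4 it was 1930, 1910 and 1987 bases in WT replicates 1, 2 and 3, but 2190, 2186 and 2019 bases in KO replicates 1, 2 and 3. WT averaged 1942 ± 39.8 bases and KO 2132 ± 97.8 bases (SD, n = 3 each), 9.75% longer in KO, with no overlap. With 3 against 3 the exact permutation test (two-sided) gave p = 0.10, the smallest value it allows. Among 237 genes with at least 50 reads and 1 FPKM in every library, 12 (5.06%) had a ratio at least as large in either direction, and the median was 0.334%. The 237 include Slco1a4 itself and genes with 1 annotated transcript, such as Nr0b2, whose length is fixed. The share among genes with several transcripts was not computed. Slco1a4 has 3 annotated protein-coding transcripts of 622 to 3823 bases. Which of them the counts came from was not tested. Near-identical members of the Slco1a family can also share its reads, and how these were divided is not given in the sources used here.

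**Figure D2:**
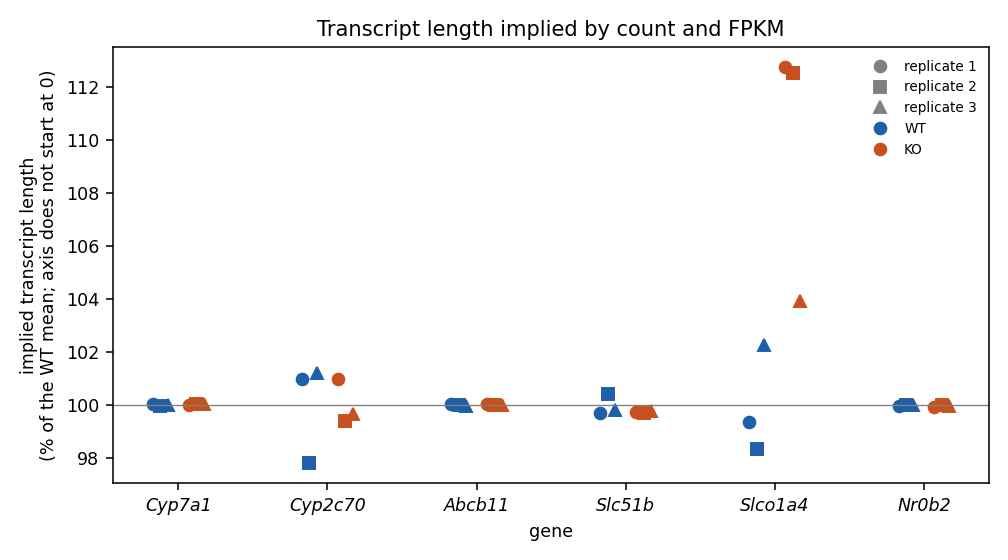
Transcript length implied by count, FPKM and depth, as a percentage of the gene's WT mean (y axis does not start at 0), 1 symbol per library. Slco1a4 stands above its WT mean in all 3 KO libraries, most in KO replicates 1 and 2, while Cyp7a1, Abcb11 and Nr0b2 stay on the line and Cyp2c70 varies within both groups.

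Nr0b2 (ENSMUSG00000037583, chromosome 4, 133553376 to 133556536, plus strand, 2 exons) was lower in KO. Its level was 14.6, 19.6 and 18.1 FPKM in WT replicates 1, 2 and 3, and 4.45, 13.5 and 5.75 FPKM in KO replicates 1, 2 and 3. KO replicate 2 was far above the other KO libraries and close to the lowest WT library, which was 1.08 times as high. The spread was thus reversed from that of Abcb11 and Cyp2c70: for Nr0b2 the coefficient of variation was 62.1% in KO and 14.7% in WT, for Abcb11 11.3% in KO and 38.9% in WT. The log2 difference by edgeR was -1.14 with an SE of 0.42 (edgeR adjusted p = 0.0230). By p-value Nr0b2 was 380th of 389 in the authors' deposited table, with an FDR of 0.0445 there, so it stood just inside the selection. Leaving out WT replicate 2, KO replicate 1 or KO replicate 3 ended the call, with values of -1.05, -0.85 and -0.95 (edgeR adjusted p = 0.0563, 0.0908 and 0.0833). Leaving out KO replicate 2 gave -1.77. The median log2 fold change of all 389 genes was -1.10, and scalings that assume most of them unchanged raised it by up to 0.66. Under those 3 scalings Nr0b2 stood at -0.60 to -0.54 and Slco1a4 at -0.63 to -0.54, and neither passed, while both kept their direction. The genes higher in KO moved further from 0 under the same scalings, Cyp7a1 up to 2.07, Cyp2c70 up to 2.54, Abcb11 up to 1.76 and Slc51b up to 2.29.

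Set against Nr0b2 within each library, which removes the library's depth, the repressed gene Cyp7a1 changed sides. The log2 ratio of Nr0b2 to Cyp7a1 (FPKM) was 0.13, 1.49 and 1.37 in WT replicates 1, 2 and 3, but -2.77, -0.97 and -1.30 in KO replicates 1, 2 and 3. Nr0b2 was the more abundant transcript of the pair in all 3 WT libraries and the less abundant in all 3 KO libraries. The WT libraries averaged 0.99 ± 0.75 and the KO libraries -1.68 ± 0.96 (SD, n = 3 each), a difference of -2.67, or 6.38-fold. Since neither gene's levels overlapped between the groups and their directions were opposite, the sign of this shift and the separation of the groups follow from the levels above and add no evidence to them.

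Within each genotype the library with the lowest Nr0b2 had the highest Cyp7a1: WT replicate 1 (14.6 FPKM against 13.4) and KO replicate 1 (4.45 FPKM against 30.4). The other KO libraries did not keep that inverse order. The highest KO level of Nr0b2 (replicate 2, 13.5 FPKM) went with a Cyp7a1 level of 26.5 FPKM, and the lowest KO level of Cyp7a1 (replicate 3, 14.1 FPKM) with 5.75 FPKM of Nr0b2. KO replicate 2 thus had Nr0b2 near the WT range and Cyp7a1 at 1.98 times the highest WT library. KO replicate 2 was also the highest KO library for Abcb11 and Slc51b, which FXR activates as well. Ppara, also in the list of FXR-activated genes below, was highest there too (11.2 FPKM). The same held for Osgin1, Por and Slc4a4, which are not in that list. Osgin1 was named because its levels were most like those of Slc51b, so its peak follows from that choice. Whether the peak has to do with FXR was not tested. Other genes, such as Srebf1 and Chac2, were highest in KO replicate 1. The share of all genes that peaked in KO replicate 2 was not counted. With 3 libraries a group, no correlation was computed.

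Against the other genes higher in KO the separation of the ratio is fixed in the same way, and the values are given as a description. Nr0b2 over Abcb11 went from a mean log2 ratio of -1.88 ± 0.57 in WT to -4.37 ± 0.69 in KO (SD, n = 3 each). FXR activates both genes. Nr0b2 over Slc51b went from 3.42 ± 1.47 to 0.15 ± 0.43, so that the transcripts were about equal per length in KO. Nr0b2 over Cyp2c70 went from -1.59 ± 1.03 to -5.07 ± 0.92. Nr0b2 over Slco1a4, the other gene lower in KO, was -2.62 ± 0.68 in WT against -2.63 ± 1.21 in KO, with the groups overlapping.

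**Figure D3:**
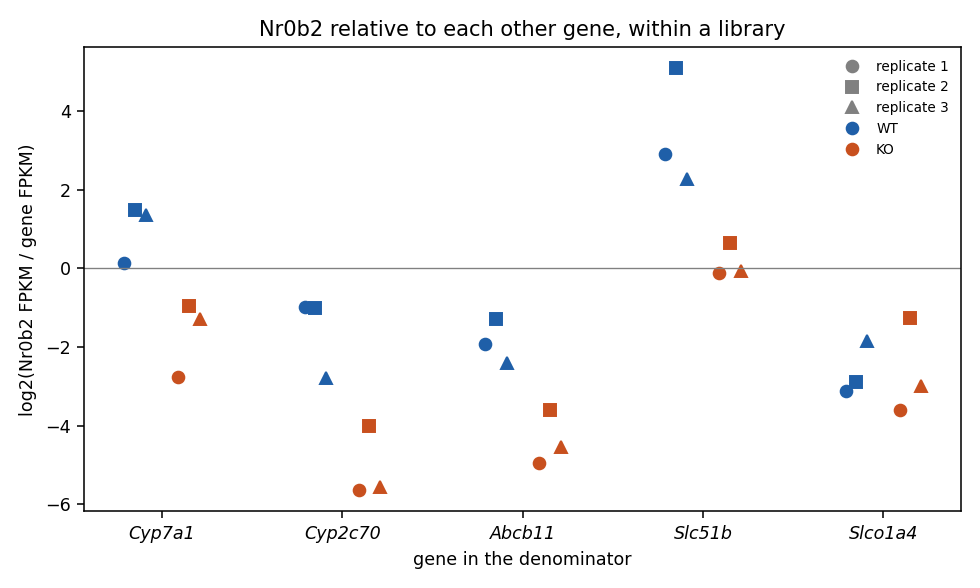
Log2 ratio of Nr0b2 FPKM to the FPKM of each other gene in the same library, with symbols for the replicate number. WT and KO libraries are separate for Cyp7a1, Cyp2c70, Abcb11 and Slc51b (gaps of 1.10 to 1.63 on the log2 scale), as the levels of the genes require, and mixed for Slco1a4.

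WT replicate 3 lay toward the KO libraries for 4 of the 6 genes. On a scale where 0 is the KO mean and 1 the mean of WT replicates 1 and 2 (log2 of the count per depth), it stood at 0.30 for Slc51b, 0.32 for Cyp2c70, 0.32 for Slco1a4 and 0.40 for Abcb11. It stood at 1.38 for Cyp7a1 and 1.07 for Nr0b2, beyond the other WT libraries' mean. Among all 389 genes 33.9% stood below 0.5 in this library, and the median was 0.67. WT replicate 3 also had the highest summed macrophage markers (above) and the highest summed acute phase genes. The 6 of 19 acute phase genes with a row (Lcn2, Socs3, Il1rn, Mt1, Mt2 and Hamp2, none at 0) summed to 996 FPKM there, against 485 and 624 in WT replicates 1 and 2 and 305 to 391 in KO. In edgeR 5 of these 6 passed as lower and 1 as higher in KO (59.9% and 39.8% of all 389 genes), so the sum mixes directions. The part of the macrophage and acute phase genes in the levels of the bile acid genes was not tested. Without WT replicate 3 all 6 genes passed, as did 372 of all 389 genes.

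**Figure D4:**
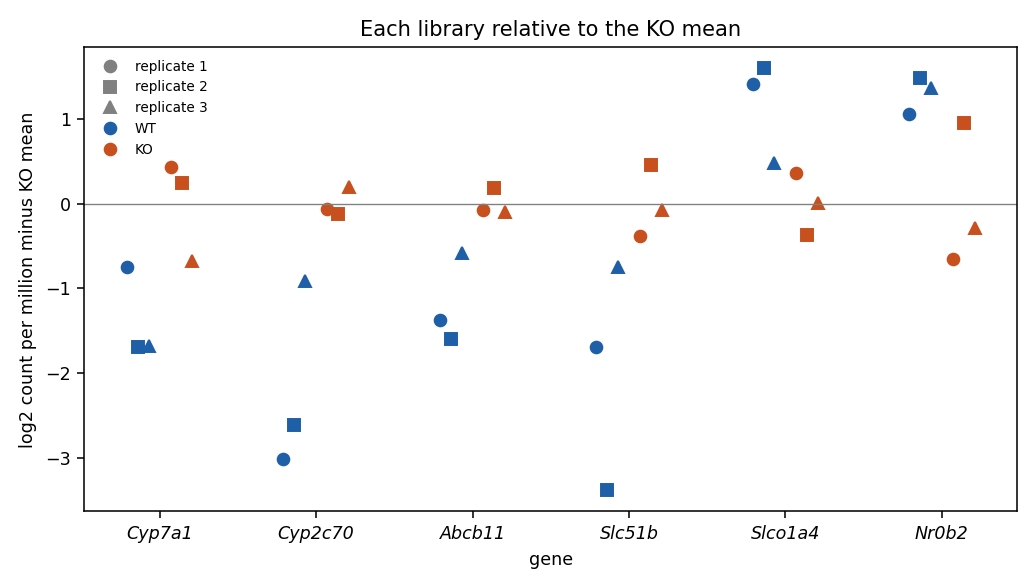
Log2 count scaled to depth (0.5 added to each count) minus the KO mean, per gene and library, with symbols for the replicate number. WT replicate 3 (blue triangle) lies between the other WT libraries and KO for Cyp2c70, Abcb11, Slc51b and Slco1a4, and with the WT libraries for Cyp7a1 and Nr0b2.

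Few other genes of the pathway were in the table. Of 72 genes in 7 lists (synthesis, side chain and conjugation, sulfation and hydroxylation, canalicular export, basolateral export, basolateral uptake, regulators), 9 had a row: the 6 above, Slc22a7, Ppara and Ppargc1a. In edgeR 5 passed higher and 4 lower in KO, against 39.8% higher and 59.9% lower over all 389 genes. As 99.7% of the selected genes passed, these calls are no result about the pathway. By list, 2 of 12 synthesis genes, 1 of 8 canalicular export genes, 1 of 4 basolateral export genes, 2 of 7 uptake genes and 3 of 25 regulators had a row. None of the 9 genes of side chain shortening and conjugation and none of the 7 of sulfation and hydroxylation had a row. Neither did Nr1h4 (the gene of FXR), Nr5a2 (LRH-1), Fgfr4 (the receptor of the ileal hormone FGF15), Cyp8b1 (which sets the share of cholic acid) or Slc10a1 (the main uptake carrier NTCP). A gene without a row was not analysed here, and its level is not known from these data.

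The 2 further regulators with a row were lower. Ppara, the nuclear receptor of fatty acid oxidation, stood at 24.9, 20.6 and 18.4 FPKM in WT replicates 1, 2 and 3 and at 8.79, 11.2 and 9.88 in KO replicates 1, 2 and 3 (KO over WT -1.07 ± 0.29 SE in log2, edgeR adjusted p = 0.00931). Ppargc1a, a coactivator of HNF4A at Cyp7a1, stood at 10.4, 6.59 and 2.95 FPKM in WT replicates 1, 2 and 3 and at 1.46, 3.03 and 1.93 in KO replicates 1, 2 and 3 (KO over WT -1.52 ± 0.40 SE in log2, edgeR adjusted p = 0.00922). Its groups overlapped, with WT replicate 3 below KO replicate 2. Slc22a7, which encodes the organic anion transporter Oat2, was higher in KO, at 1.88, 0.77 and 0.89 FPKM in WT replicates 1, 2 and 3 and at 4.05, 3.61 and 6.33 in KO replicates 1, 2 and 3 (KO over WT 1.98 ± 0.43 SE in log2, edgeR adjusted p = 0.00578). Its direction was opposite to that of Slco1a4, the other uptake gene with a row.

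Lists of receptor targets were mixed or short. Of 9 genes that SHP represses in textbook accounts, 3 had a row: Cyp7a1 and Srebf1 were higher and Nr0b2, which SHP represses in turn, was lower. Srebf1, the regulator of fatty acid synthesis, stood at 4.57, 3.92 and 15.9 FPKM in WT replicates 1, 2 and 3 and at 28.6, 26.5 and 22.2 in KO replicates 1, 2 and 3, and, as for Cyp2c70, WT replicate 3 stood above the other WT libraries. Cyp7a1 and Srebf1 are also the 2 of 10 LXR-activated genes with a row. Of 17 FXR-activated genes 4 had a row, Abcb11 and Slc51b higher and Nr0b2 and Ppara (a target described for the human gene) lower. Their median log2 fold change of 0.03 (-1.10 over all 389) falls in the gap between the directions. No gene of the list stood near it. Of 12 PXR and CAR target genes 3 had a row, and all were lower: Slco1a4, Por (log2 fold change -1.07), which encodes the electron donor of microsomal P450 enzymes, and Alas1 (-1.06), which starts heme synthesis. With 59.9% of the table's genes called lower, 3 lower of 3 says little about that list.

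Beyond the pathway, the 2 genes most like each of the 6 were found by the root mean square difference of centred log2 counts scaled to depth over the 6 libraries. The correlations given describe points that share libraries and a genotype split. Nr0b2 was most like Rnd1 (0.19, Pearson r = 0.97) and Nr1d1 (0.20, r = 0.97), which encodes the clock repressor REV-ERBα. Nr1d1 stood at 31.9, 28.3 and 28.8 FPKM in WT replicates 1, 2 and 3 and at 8.97, 23.8 and 9.98 in KO replicates 1, 2 and 3, and so shared with Nr0b2 the high KO replicate 2. Slc51b was most like Osgin1 (0.18, r = 0.99), an oxidative stress response gene, at 84.7, 33.0 and 137 FPKM in WT and 195, 378 and 252 in KO replicates 1, 2 and 3. The second was the predicted gene Gm21962 (0.21).

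Cyp2c70 was most like Aqp8 (0.29, r = 0.97), which encodes a water channel of the canalicular membrane, and Srebf1 (0.30, r = 0.97). Abcb11 was most like Col27a1 (0.08), a collagen gene below 1 FPKM in every library, and Nudt16l1 (0.10). Slco1a4 was most like Gnat1 (0.15) and Fh1 (0.18), the latter encoding fumarate hydratase, and Cyp7a1 most like Mrnip (0.32) and Chac2 (0.33). None of the 6 was among the 2 nearest genes of another. By this difference the nearest pair of them was Cyp7a1 and Abcb11 (0.60, r = 0.70). Abcb11 correlated more closely with Cyp2c70 (0.65, r = 0.96) and Slc51b (0.66, r = 0.95), so the 2 measures rank these pairs differently.

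**Figure D5:**
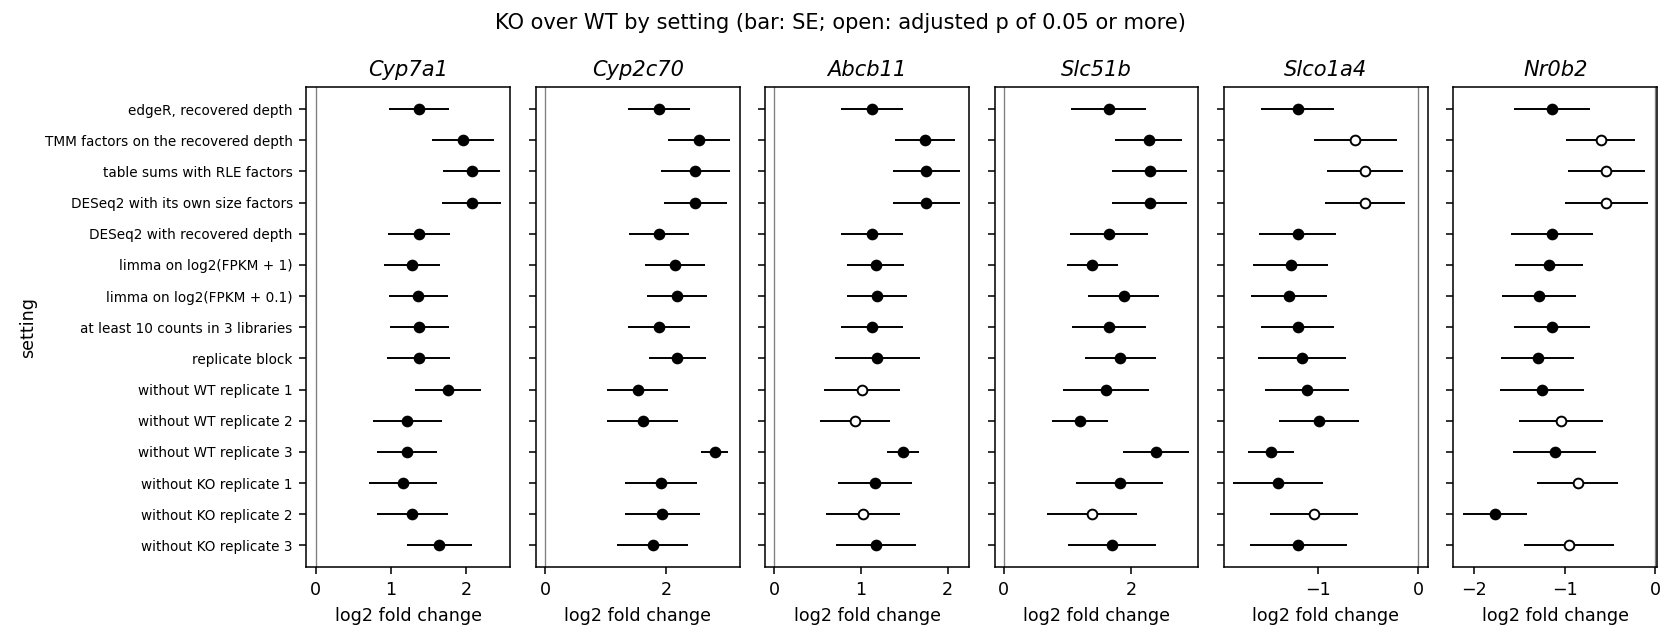
Log2 fold change of KO over WT for each gene (x axes differ in range) under the reported fit and 14 other settings (y axis), with bars for the SE and open symbols for an adjusted p of 0.05 or more. No point crosses 0, and the open symbols are 3 for Abcb11, 1 for Slc51b, 4 for Slco1a4 and 6 for Nr0b2.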

How the data were processed

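RNA of 6 mouse liver samples was sequenced, 3 per genotype. The submitters' processing notes name HISAT2, RSEM, fastp (0.18.0) and StringTie (1.3.1). What each did, and which build, annotation and test were used, is not given in the sources used here. What the authors deposited is 1 table of 389 genes that they had selected, with counts and FPKM per sample, the mean FPKM of each group, a log2 fold change of those means, a p-value and an FDR, per the file headers. Positions come from GENCODE M21 (GRCm38).

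Depth was recovered as the median of count over FPKM and transcript length in genes with 1 annotated transcript, at least 50 reads and 1 FPKM. Counts of all 389 genes were tested with edgeR 4.0.16 (quasi-likelihood, recovered depth as library size, no filter, Benjamini-Hochberg over 389). This test returns no SE, so the SE of every edgeR fit was derived as the absolute log2 fold change over the square root of the F statistic. DESeq2 1.42.0, limma 3.58.1, other scalings, a filter, a replicate block and leaving out each library were alternatives. The script was tested on simulated data. The table proved to hold selected rows, so the p-values describe the selection.

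The 6 genes and all lists were chosen with earlier results of these data known. Named genes were the 6, up to 3 genes past the threshold per list, and the 2 genes most like each. The labels give no batch. Same-numbered samples do not share an animal or batch in the labels.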

Additional observations from a re-analysis of the deposited data

How the results depend on the processing

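Of 84 fold changes (6 genes under 14 alternatives), all 84 kept their direction and 70 also their side of the threshold. With TMM factors, table sums with relative log expression factors and DESeq2's own size factors, Slco1a4 stood at a log2 fold change of -0.63, -0.54 and -0.54 and Nr0b2 at -0.60, -0.54 and -0.54. None of these passed (adjusted p = 0.166 to 0.269), and 250, 236 and 239 of the 389 genes did, 62.4%, 66.1% and 65.3% of them higher in KO against 39.9% in the reported fit. The calls higher in KO were 156 under each against 155 in the reported fit, while those lower in KO were 94, 80 and 83 against 233. These scalings raise the median gene by construction. The number of the 6 genes that passed was 3 to 6 without 1 library, 3 of them without KO replicate 2, and that of all genes 279 to 372. The log2 fold changes without 1 library ran from 1.16 to 1.76 for Cyp7a1, 1.53 to 2.80 for Cyp2c70, 0.93 to 1.49 for Abcb11, 1.20 to 2.39 for Slc51b, -1.47 to -0.99 for Slco1a4 and -1.77 to -0.85 for Nr0b2. The difference in the log2 ratio of Nr0b2 to Slco1a4, -0.01 with all libraries, ran from -0.68 to 0.48 and was reversed without WT replicate 3 (0.38), KO replicate 1 (0.48) and KO replicate 3 (0.18). The ratio to Cyp7a1 ran from -3.11 to -2.13. With the replicate number as a block, 382 genes passed in place of 388, among them the 6, with Cyp7a1 at 1.37 and Nr0b2 at -1.30. Deviations of same-numbered libraries correlated at 0.01, 0.08 and -0.04, and most libraries correlated better with one of another number. These values gave no sign that the numbers pair the samples. With so few libraries and selected genes they cannot exclude a shared batch. Depth limits Slc51b most, with 10 reads in its lowest library, and intervals on reads cover counting error only.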

Other observations

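The pathway column of the deposited table places 11 of the 389 genes under bile secretion, 5 of them among the 6 genes described above. This list was chosen after the data were seen. The other 6 were Aqp8 and Slc22a7, higher in KO, and Slc2a1, Nceh1, Slc4a4 and Adcy1, lower. Aqp8 stood at 9.79, 10.7 and 43.5 FPKM in WT replicates 1, 2 and 3 and at 58.1, 90.2 and 61.1 in KO replicates 1, 2 and 3 (KO over WT 1.71 ± 0.55 SE in log2, edgeR adjusted p = 0.0154). Without WT replicate 3 this log2 fold change was 2.77. Like Abcb11 and Slc51b it was highest in KO replicate 2. Slc4a4, which encodes a sodium bicarbonate cotransporter, stood at 22.7, 22.4 and 18.3 FPKM in WT replicates 1, 2 and 3 and at 8.36, 11.7 and 8.45 in KO replicates 1, 2 and 3. WT replicate 3 was its lowest WT library, nearer to the other WT libraries than to KO. Slc2a1, the gene of the glucose transporter GLUT1, differed by -1.39 ± 0.31 SE in log2 (edgeR adjusted p = 0.00587). Nceh1, which encodes a neutral cholesterol ester hydrolase, differed by -1.31 ± 0.29 SE in log2 (edgeR adjusted p = 0.00591). Adcy1 stood below 1 FPKM in every library with overlapping groups, and its log2 fold change of -1.81 became -0.94 without WT replicate 3.

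The GO column names bile acid for 8 genes, of which Aqp8, Acaa1a and Nr1d1 are not among the 6. Acaa1a, which encodes a peroxisomal thiolase, stood at 165, 160 and 75.8 FPKM in WT replicates 1, 2 and 3 and at 52.1, 54.9 and 52.9 in KO replicates 1, 2 and 3. Its KO libraries were nearly equal, and WT replicate 3 lay nearer to them than to the other WT libraries.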
